A study of Rattus norvegicus with 6 samples.

Results

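The transcriptome of HEI-OC1 cells given a control siRNA is described here, over all genes and without reference to the knockdown arm of the study. The members are the 3 control libraries of 6, and 17455 of the 18718 rows in the count table had at least 1 read in them. The deposited rows are titled as expressed genes, and how they were chosen is not known here. They may thus not cover all annotated genes, and a gene without a row may have lacked reads. All 6 libraries came from HEI-OC1 cells kept at 37 °C and 5% CO2 in DMEM containing 10% serum. The other 3 libraries received an siRNA against Hnrnpd, the gene of the RNA-binding protein AUF1, and were not used. The control cells were themselves given an siRNA, so they are not untreated cells, and the labels do not say whether the 3 libraries came from separate cultures.

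HEI-OC1 is an established line made from the organ of Corti, the sensory epithelium of the cochlea. As background, it is generally known as a mouse line that carries a temperature-sensitive large T antigen, the viral protein that keeps it dividing, and it has been used widely to test compounds that harm hair cells. Hair cells are the mechanosensory cells that turn sound into nerve signals, and supporting cells surround them and can act as their progenitors. The labels give the organism as rat and the reads were counted on rat gene models. Whether the reads are from rat or mouse was not tested, so a low level of a single gene may also be a level at which its reads were not assigned. Total RNA was sequenced as 150 nt paired ends. The control libraries held 28984535, 31787216 and 35842904 gene counts, called control 1 to 3 below.

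Levels are given as the deposited FPKM, which scale a gene's reads by its length and the library's depth, so they can be set side by side between genes. A gene is called present here at a mean of at least 1 FPKM over the 3 libraries, and 10182 rows (54.4%) reached that level. That share is a background for every count of present genes given below. The gene lists were chosen with earlier results of these data known, so a list's share above it describes the list and is not a test. Of these, 5412 reached 10 FPKM, 962 reached 100 FPKM and 115 reached 1000 FPKM. The median was 1.68 FPKM over all rows and 11.3 FPKM over the rows present. Among protein-coding rows alone 60.3% were present and the median was 2.95 FPKM, a nearer background for lists of named genes. The counts given for a list cover only those of its entries that matched a row. The libraries differed little in how many genes they showed, with 10219, 10144 and 10141 rows at 1 FPKM or more in controls 1, 2 and 3. A gene with no read in a library could still have been there at up to 0.104, 0.0944 and 0.0837 CPM, a library's reads scaled to a common total, taking 3 reads as the limit that a count of 0 allows, for counting error only.

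The siRNA target of the other arm was itself well expressed in these cells. Hnrnpd, listed as Hnrpd on chromosome 14, had 9267, 9445 and 9709 reads in controls 1 to 3, equal to 160, 149 and 137 FPKM. Its mean of 149 ± 11.5 FPKM (SD, n = 3) placed it at rank 661 of all rows.

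Genes of translation and respiration held most of the top ranks by level. The 100 most counted genes took 24.5% ± 0.801 of the reads and the 1000 most counted took 60.4% ± 0.543 (SD, n = 3). Of the 100 highest rows by FPKM, 46 were cytosolic ribosomal protein genes and 11 were encoded in the mitochondrial genome. A further 11 of the remaining 43 were described in the tables as ribosomal proteins or as similar to one. Rows named as cytosolic ribosomal proteins together took 7.70%, 8.24% and 8.23% of the reads in controls 1 to 3. Rows that are only described as one are not in these shares. Mitochondrially encoded genes took 7.04%, 6.32% and 5.27%, highest in control 1 and lowest in control 3. Mt-co1, a catalytic subunit of cytochrome c oxidase, was the highest row of all at 10961, 10761 and 8407 FPKM.

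Outside these 2 classes, the highest named genes included those of iron storage, detoxification, calcium-binding and cytoskeletal proteins. Fth1, the heavy chain of the iron-storing protein ferritin, had 6028, 6383 and 6552 FPKM, and the light chain Ftl1 had 3427, 3804 and 3959 FPKM. Ftl1 has a close copy on another chromosome, LOC100360087, with 3922 ± 405 FPKM, and reads of the pair may have been split between them by the counting. Gstp1, a glutathione transferase that conjugates electrophiles, had 3426, 3966 and 4319 FPKM. The small calcium-binding proteins S100a6 and S100a4 stood at 3728 ± 426 and 2212 ± 251 FPKM. Lgals1, a secreted galactose-binding lectin, had 3033 ± 333 FPKM, close to the glycolytic enzyme Gapdh at 2720 ± 105 FPKM. The actin-sequestering thymosins Tmsb4x and Tmsb10 had 2035 ± 93.3 and 1926 ± 101 FPKM, and the membrane-binding annexin Anxa2 had 1946 ± 54.5 FPKM.

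A pair of secreted immune genes, Il1rn and Cxcl10, stood within the range of these highest genes. Il1rn, the secreted antagonist that blocks the interleukin-1 receptor, had 2564, 2446 and 2340 FPKM in controls 1 to 3 and was the row at rank 29. By CPM, without the scaling for length, it was at rank 5. Cxcl10, a chemokine that attracts T cells and is a classical interferon target, had 1812, 2289 and 2357 FPKM, with control 1 the lowest, and was at rank 46.

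Of the 25 highest protein-coding rows outside those named as ribosomal proteins or encoded by the mitochondrial genome, several are unnamed. LOC100361103, LOC100361854, RGD1563861 and LOC100363012 are described as ribosomal proteins or similar to one. LOC100909555, described only as uncharacterized, was at rank 5 with 8429, 7105 and 3678 FPKM, so control 1 was more than 2-fold above control 3. AABR07015055.1, which has no description, had 4005, 3176 and 1689 FPKM, with the libraries in the same order. These were the rows with the widest spread among the 25, and what they encode is not stated in the tables.

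**Figure D1:**
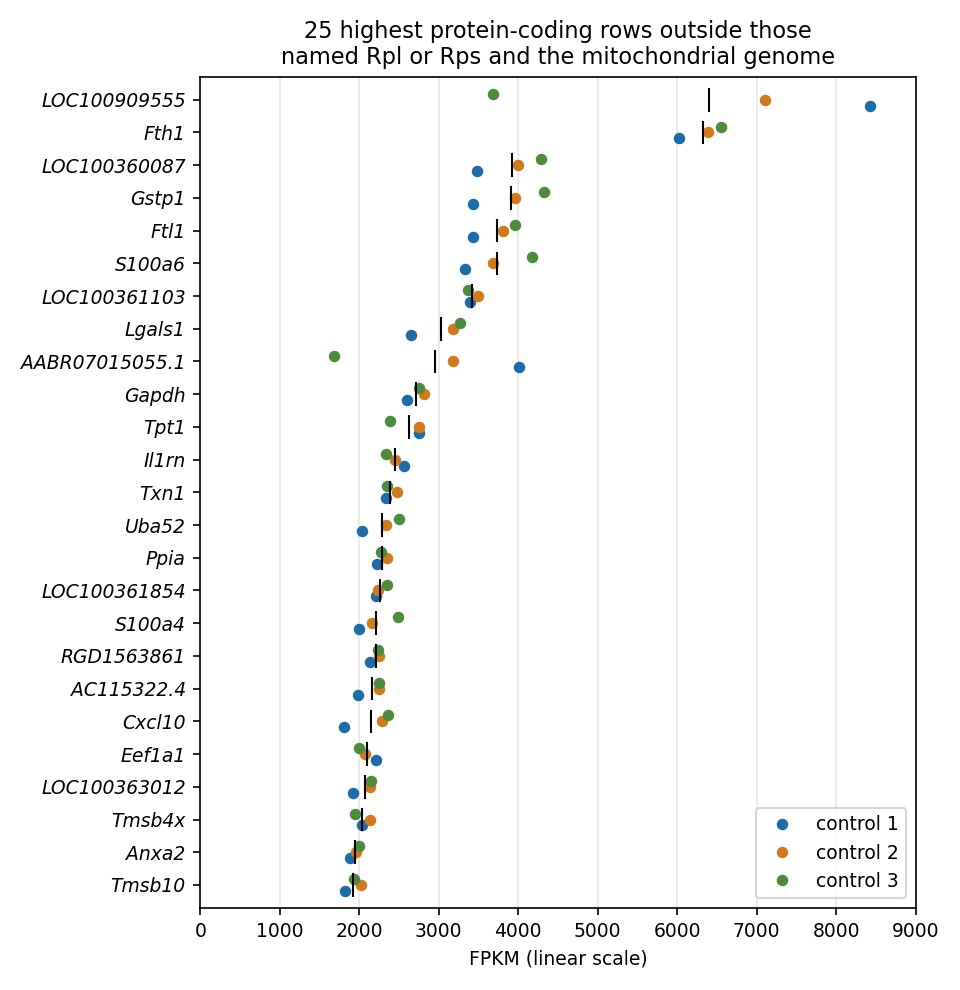
FPKM (horizontal axis, linear) of the 25 highest protein-coding rows outside those named Rpl or Rps and the mitochondrial genome, with 1 point per control library and a vertical bar at the mean. LOC100909555 and AABR07015055.1 spread widely with control 3 lowest, while Gapdh, Il1rn and Anxa2 lie close together across the 3 libraries.

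By the GeneType column of the tables, protein-coding rows took 98.8% ± 0.0430 of the reads. Ribosomal RNA rows outside the mitochondrial genome took 0.00800% ± 0.00276. These are shares of the reads counted on the deposited rows, not of the RNA in the cells. They depend on how the libraries were made, which is not described here. Of the 16231 protein-coding rows 9795 (60.3%) were present. Long intergenic non-coding RNA rows took 0.106% ± 0.00248, and 83 of 956 were present. Processed transcript rows took 0.142% ± 0.00497, and 18 of 40 were present. The most counted of these, Syne1, Snx3 and Itgb5, are described as named proteins, so the column does not cleanly separate coding from non-coding genes. Pseudogene rows of 4 types took 0.561% ± 0.0226, and 118 of 608 were present. The most counted pseudogene row was LOC100360645, described as like ubiquitin B, at 1530 ± 127 CPM, while no row matched the symbol Ubb itself. The most counted intergenic RNA, Rn60_14_0846.1, had 78.6 ± 13.3 CPM and no description. The 2 mitochondrial ribosomal RNA rows took 0.393% ± 0.0546. Reads on a pseudogene row can come from the parent gene, and the tables do not separate the 2 sources.

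The labelled cell type was checked against marker lists. Hair cell genes were nearly all low. Of 15 matched hair cell markers 2 were present: Fbxo2, a ubiquitin ligase component abundant in the cochlea, at 6.56, 6.41 and 8.86 FPKM, and Myo6, the motor that anchors stereocilia, at 4.48, 3.83 and 3.66 FPKM. Myo7a, another stereociliary motor, had 0.0367 ± 0.0252 FPKM. Gfi1, a transcription factor needed for hair cell survival, and Calb2, a calcium buffer, had 0 reads in all 3 libraries. Atoh1, Pou4f3, Pvalb, Pcdh15, Tmc1, Strc, Chrna9 and Ush1c matched no row, so they have no value here. Whether they lacked reads is not known. The whole list summed to 52.9, 46.5 and 49.1 CPM.

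Genes of supporting and progenitor cells of the inner ear were mixed. Of 14 matched supporting cell and prosensory markers 7 were present. Cdkn1b, the cell cycle inhibitor p27 that holds supporting cells out of division, had 35.0 ± 3.19 FPKM, S100a1 had 25.9 ± 1.01 FPKM and the Notch target Hes1 had 18.1 ± 1.56 FPKM. The Notch modulator Lfng and the Notch ligand Jag1 were lower, at 4.28 ± 0.588 and 2.83 ± 0.210 FPKM. Below 1 FPKM were Fgfr3 at 0.56 ± 0.0693, Hey1 at 0.147 ± 0.0551, Lgr5 at 0.07 ± 0.02 and Ngfr at 0.01 ± 0.01 FPKM. Tecta and Tectb each had 0.00333 ± 0.00577 FPKM, and Prox1 had 1, 0 and 0 reads. Sox2, Hes5, Gjb2, Gjb6 and Otog matched no row. Of 14 otic placode and otocyst genes 4 were present. The T-box factor Tbx1, which patterns the otic vesicle, had 27.8, 30.8 and 36.6 FPKM. The transcriptional coactivator Eya1 had 3.72 ± 0.284 FPKM, Pax8 had 2.28 ± 0.240 FPKM, and Dlx6 had 0 reads.

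The fibroblast and mesenchymal list was the one with the most members present, 19 of 22, with a median of 14.6 FPKM against 1.68 FPKM over all rows. S100a4 and the mesenchymal intermediate filament Vim led it, Vim with 1798, 1855 and 1873 FPKM. Sparc, a collagen-binding glycoprotein, had 810 ± 16.3 FPKM, and the surface protein Thy1 had 236 ± 13.8 FPKM. The PDGF receptor Pdgfrb had 33.5 ± 2.71 FPKM and the mesenchymal factor Twist1 had 29.6 ± 1.84 FPKM. The members below 1 FPKM were the collagen chain Col1a2 at 0.603 ± 0.0379 FPKM, the proteoglycan Dcn at 0.0733 ± 0.0451 FPKM and the matricellular protein Postn at 0.0533 ± 0.0208 FPKM. The list summed to 12095, 12375 and 13231 CPM in controls 1 to 3. Of this sum, S100a4 and Vim are also made by many dividing cells in culture, so the list is not specific to fibroblasts. In a bulk library, a few cells with much RNA of a gene and many cells with little cannot be told apart.

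Markers of other cell types were mostly near 0. The contractile list had 6 of 12 present, led by the tropomyosin Tpm2 at 172 ± 2.81 FPKM and the myosin light chain Myl9 at 74.9 ± 3.29 FPKM. The defining smooth muscle actin Acta2 had 0.0567 ± 0.0208 FPKM and the master factor Myocd had 0 reads. Of 12 matched epithelial markers 2 were present, Grhl2 at 5.49 ± 0.388 FPKM and Krt7 at 1.07 ± 0.146 FPKM. E-cadherin, Cdh1, had 0.00667 ± 0.00577 FPKM, and the splicing factor Esrp1 and keratin Krt5 had 0 reads. Of 9 neuronal markers the intermediate filament Prph alone was present, at 11.3 ± 1.72 FPKM. The glial list had 2 of 11, Cnp at 54.7 ± 4.83 FPKM and Pmp22 at 31.6 ± 0.910 FPKM, with the myelin gene Mag at 0 reads. The macrophage and lymphoid list had 2 of 12, the lipopolysaccharide co-receptor Cd14 at 30.5 ± 1.39 FPKM and Cd68 at 1.71 ± 0.0709 FPKM, with Nkg7 at 0 reads. The melanocyte list had 2 of 6 (Pmel 2.82 ± 0.335 FPKM), the endothelial list 1 of 9 (Flt1 1.29 ± 0.0737 FPKM, Emcn at 0 reads) and the chondrocyte and osteoblast list 1 of 9 (Runx2 3.56 ± 0.418 FPKM). In these libraries the labelled auditory cells thus carried most genes of the fibroblast and mesenchymal list. That list is not specific to fibroblasts, and Col1a2, Dcn and Postn were below 1 FPKM. Of the otic placode and otocyst genes 28.6% were present, under the 54.4% of all rows. The cells held little RNA of the defining hair cell genes that could be matched.

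**Figure D2:**
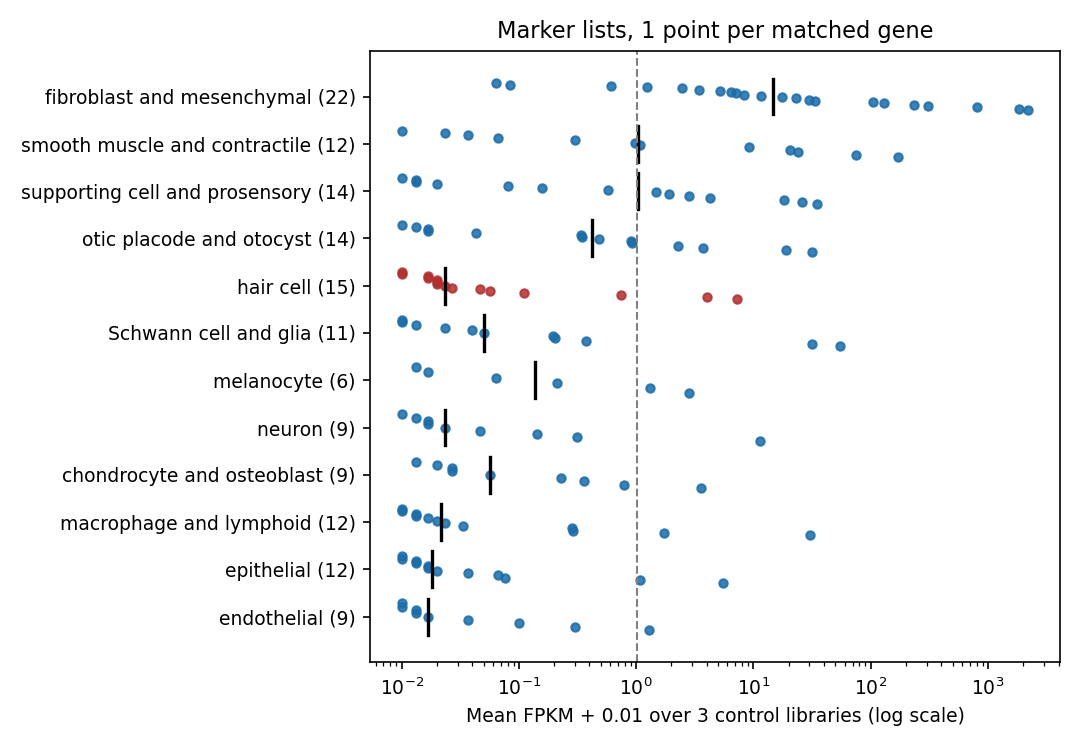
Mean FPKM plus 0.01 over the 3 control libraries (horizontal axis, log scale) for each matched gene of 12 marker lists, with the number of matched genes in brackets, a thick bar at each list's median and a dashed line at the 1 FPKM level. The fibroblast and mesenchymal list has 19 of 22 genes to the right of the line, and the hair cell list (red) has 2 of 15.

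Interferon-stimulated genes, which cells switch on after sensing interferon or foreign nucleic acid, were broadly present. Secreted interferons act through surface receptors and transcription factors that bind a short motif in the promoters of these genes. Of 57 matched genes 51 were present and 7 reached 100 FPKM, with a median of 15.9 FPKM against 1.68 FPKM over all rows. Ifi27, a mitochondrial interferon-induced protein, had 1319, 1597 and 1783 FPKM. Oasl, an antiviral protein of the oligoadenylate synthetase family, had 311, 395 and 440 FPKM. Lgals3bp, a secreted glycoprotein, had 243, 319 and 323 FPKM, and the ubiquitin-like modifier Isg15 had 154, 228 and 222 FPKM. Control 1 was the lowest library for each of these and for Cxcl10. Irf7, the factor that drives type I interferon genes, had 134 ± 22.1 FPKM and Ifit3 had 129 ± 14.1 FPKM. Not every member was high: Ifit1, an RNA-binding antiviral protein, had 0.160 ± 0.0819 FPKM and Oas3 had 0.0200 ± 0.0173 FPKM. All of these cells had been given a control siRNA, and its part in the levels of interferon-stimulated genes was not tested.

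The promoters of the 4 highest of these genes that hold the core of the interferon response motif show where it lies. The motif searched was GAAA, any 2 bases and GAAA again, on both strands, in the 250 bases before the RefSeq gene start. Each line gives 100 of those bases on the strand of the gene, 5′ to 3′, in the rat assembly GRCr8, with the copy of the motif in capitals (reverse-complemented in Irf7, where it lies on the other strand).
Cxcl10, chr14:15988816-15988915, plus strand: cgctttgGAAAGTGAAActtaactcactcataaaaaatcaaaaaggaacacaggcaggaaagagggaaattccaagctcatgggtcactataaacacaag
Ifi27, chr6:128355178-128355277, plus strand: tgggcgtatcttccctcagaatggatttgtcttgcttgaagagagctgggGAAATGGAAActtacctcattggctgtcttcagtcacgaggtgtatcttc
Lgals3bp, chr10:104127849-104127948, minus strand: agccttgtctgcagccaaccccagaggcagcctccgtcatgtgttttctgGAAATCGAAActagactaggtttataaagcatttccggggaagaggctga
Irf7, chr1:205800043-205800142, minus strand: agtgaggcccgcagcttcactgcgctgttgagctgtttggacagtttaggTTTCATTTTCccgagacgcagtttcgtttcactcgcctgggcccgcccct

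The copies began 243 bases before the start in Cxcl10, 84 in Ifi27, 50 in Lgals3bp and 69 in Irf7, and Ifi27 held 2 copies in its window. Of the 57 interferon-stimulated genes 43 matched a promoter in the RefSeq table, and 26 of those 43 (60.5%) held the motif, against 3.41% of all 33469 promoters of the same length in that table. The shares cover only matched genes. Oasl, with 382 ± 65.1 FPKM, held none in this window, and Oas3, with hardly any reads, held 1. Among genes of class I antigen presentation 7 of 21 promoters (33.3%) held it, and among complement and acute phase genes 0 of 17. A match describes the letters of the window and was not tested as a binding site. The windows are those of the rat assembly, and whether the reads are from rat or mouse was not tested. The sequences and positions may thus not be those of the cells sequenced.

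**Figure D3:**
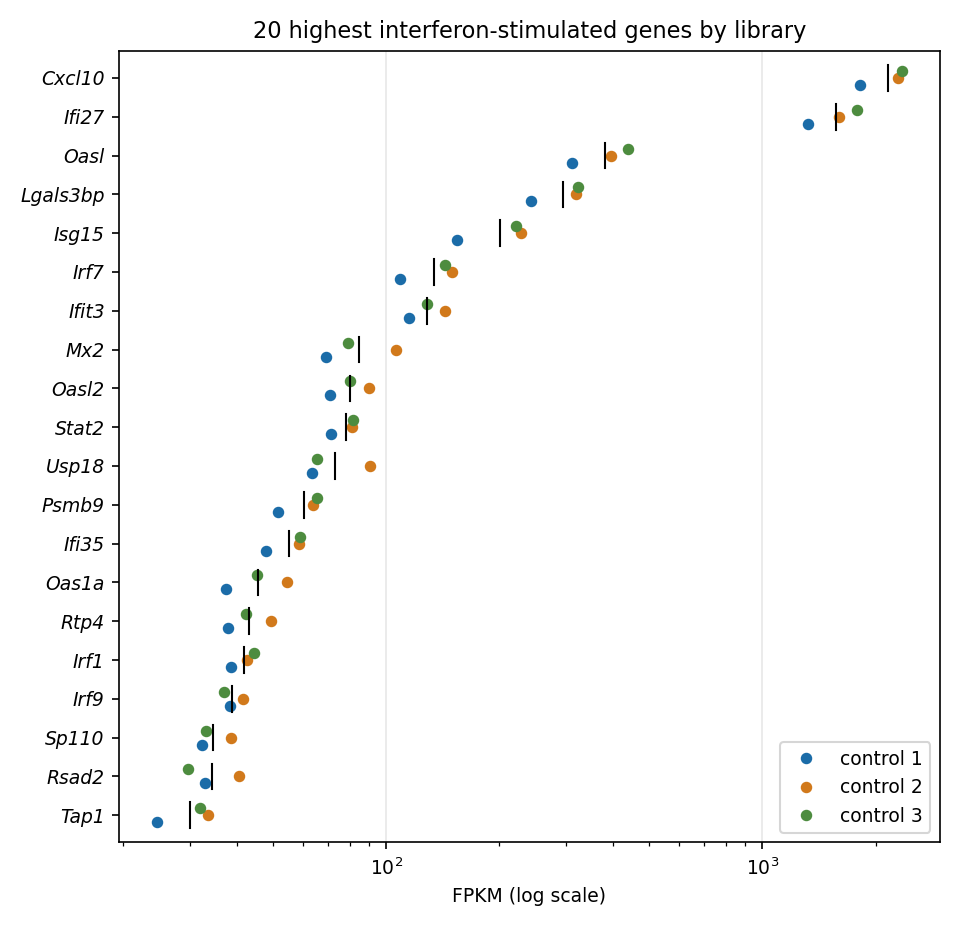
FPKM (horizontal axis, log scale) of the 20 highest interferon-stimulated genes, with 1 point per control library and a vertical bar at the mean. Control 1 is the lowest library for each of the 7 genes at 100 FPKM or more.

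The interferon-stimulated list was not level between the control libraries. It summed to 8967, 11206 and 11054 CPM in controls 1 to 3. Among its 52 genes at 1 CPM or more, 46 were higher in control 2 than in control 1, with a median log2 difference of 0.32, and 33 were higher in control 3 than in control 1, with a median of 0.05. Over all rows the same medians were 0.00 and 0.01. Of 25 genes of class I presentation, 22 and 21 were higher in controls 2 and 3 than in control 1, with medians of 0.27 and 0.26, and the difference between these lists was not tested. The mitochondrial share of reads ran the other way, 7.04% in control 1 against 6.32% and 5.27%, and its part in the difference was not tested.

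The receptors and factors upstream of these genes were present, while the interferon-beta gene was near 0. Stat2 had 78.1 ± 5.80 FPKM, Irf9 had 39.0 ± 2.32 FPKM and Irf1 had 42.0 ± 3.01 FPKM. The interferon-gamma receptor chain Ifngr1 had 52.3 ± 0.840 FPKM and the type I receptor chains Ifnar1 and Ifnar2 had 17.1 ± 0.377 and 12.4 ± 0.869 FPKM. Ifnb1, the gene of interferon-beta, had 3, 2 and 3 reads. Of 23 nucleic acid and pattern sensing genes 11 were present. The highest was Sting1, listed as Tmem173, the adaptor of cytosolic DNA sensing, at 49.2 ± 4.52 FPKM, followed by Irf3 at 23.5 ± 1.96 FPKM and the RNA sensor Dhx58 at 21.5 ± 2.21 FPKM. Of 11 Toll-like receptors the lipopolysaccharide receptor Tlr4 alone was present, at 1.52 ± 0.238 FPKM.

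Antigen presentation was split by class. Of 26 class I genes 24 were present, with a median of 24.4 FPKM. The class I light chain B2m had 812, 919 and 894 FPKM, the chaperone Calr had 710 ± 15.0 FPKM, and the proteasome activator Psme1 had 333 ± 20.9 FPKM. The class I heavy chain RT1-A2 had 85.6 ± 7.36 FPKM. Genes of the RT1 family are near copies of one another, so their separate levels are uncertain. Of 12 class II genes 3 were present: the promoter factors Rfxank (14.8 ± 1.10 FPKM) and Rfx5 (4.29 ± 0.320 FPKM) and the lysosomal reductase Ifi30 (6.22 ± 0.318 FPKM). The class II chain RT1-Db1 had 0 reads and the invariant chain Cd74 had 0.147 ± 0.0404 FPKM.

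Complement and acute phase genes were present in 20 of 33 cases. That is 60.6%, near the 60.3% of protein-coding rows, against 54.4% of all rows. Clu, a secreted chaperone that also restrains complement, led with 651, 714 and 760 FPKM. Lbp, which carries lipopolysaccharide to Cd14, had 495 ± 27.8 FPKM, and the initiating proteases C1r and C1s had 274 ± 14.5 and 88.0 ± 1.6 FPKM. The iron-scavenging Lcn2 had 97.0 ± 3.93 FPKM and haptoglobin, Hp, had 69.5 ± 2.69 FPKM. The C1q chain C1qa had 0 reads. All 21 genes of the NF-kB list were present, led by the inhibitor Nfkbia at 94.0 ± 6.02 FPKM, with the subunit Rela at 26.4 ± 2.19 FPKM.

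Secreted genes were mostly under 1 FPKM, with a small group at high levels. Of 173 genes in the secreted lists and families 75 were present and 17 reached 100 FPKM, and together they took 2.46% ± 0.0468 of the reads. Among 30 cytokines and chemokines 15 were present. After Il1rn and Cxcl10 came Spp1, the phosphoprotein osteopontin, at 1413, 1318 and 1291 FPKM, and the monocyte attractant Ccl2 at 335, 393 and 361 FPKM. The neutrophil attractant Cxcl1 had 113 ± 1.93 FPKM and Ccl7 had 71.8 ± 5.51 FPKM. The interleukins were low as a family, with 5 of 18 present. Il36b was the highest at 8.22 ± 1.01 FPKM and Il11 had 5.21 ± 0.396 FPKM. Il6 had 0.643 ± 0.140 FPKM, and Il1a, an agonist of the receptor that Il1rn blocks, had 0 reads. Il1b and Tnf matched no row.

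Growth factors were present in 25 of 38 cases. Ptn, the heparin-binding factor pleiotrophin, had 939, 897 and 902 FPKM, and Grn, the lysosomal and secreted progranulin, had 279 ± 24.7 FPKM. The macrophage growth factor Csf1 had 98.4 ± 9.29 FPKM, Tgfb1 had 80.7 ± 8.37 FPKM and Tgfa had 48.8 ± 2.52 FPKM. Fgf7, which mesenchyme makes for epithelia, had 82.6, 68.2 and 73.6 FPKM and was 1 of only 2 of 12 fibroblast growth factors present, the other being Fgf1 at 4.88 ± 0.301 FPKM. Bmp4 led the bone morphogenetic family at 46.9 ± 2.68 FPKM, with 6 of 13 present. Of 10 Wnt ligands 2 were present, Wnt6 at 8.17 ± 1.84 FPKM and Wnt7b at 1.24 ± 0.310 FPKM.

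Extracellular inhibitors were among the highest secreted genes. Cst3, the cysteine protease inhibitor cystatin C, had 1500, 1673 and 1814 FPKM. Slpi, which blocks neutrophil elastase, had 1329, 1617 and 1539 FPKM, with control 1 the lowest for both genes. The metalloproteinase inhibitors Timp1 and Timp2 had 499 ± 43.1 and 330 ± 20.6 FPKM, and the antiangiogenic serpin Serpinf1 had 236 ± 13.6 FPKM. Of 22 growth factor binding proteins and antagonists 12 were present. Igfbp7 had 473 ± 29.2 FPKM and Igfbp4 had 118 ± 5.16 FPKM, both binders of insulin-like growth factors. The serine protease Htra1 had 172 ± 3.37 FPKM, and the activin antagonist Fst had 34.8 ± 0.677 FPKM. The BMP antagonist Grem1 had 0 reads.

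**Figure D4:**
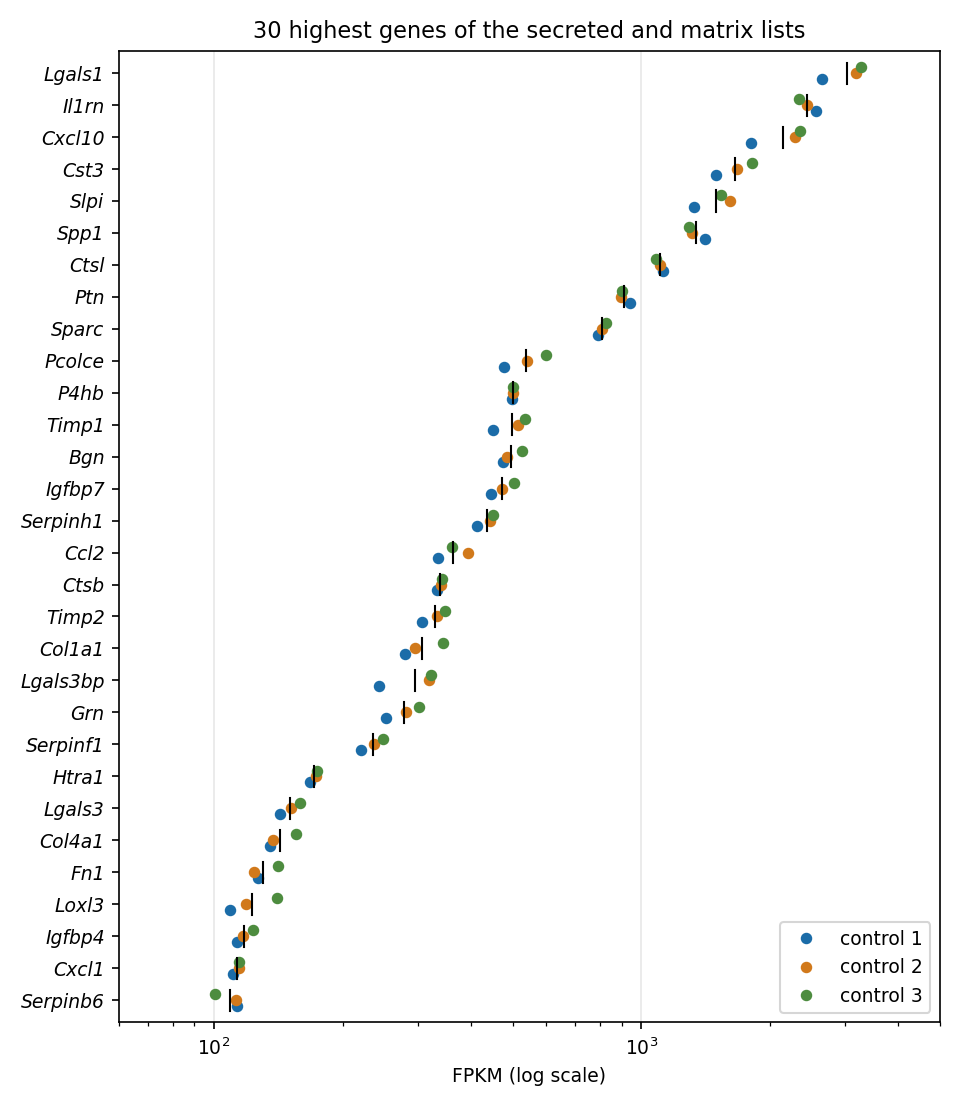
FPKM (horizontal axis, log scale) of the 30 highest genes of the secreted and matrix lists, with 1 point per control library and a vertical bar at the mean. Lgals1, Il1rn and Cxcl10 stand above 1800 FPKM in every library, ahead of the protease inhibitors Cst3 and Slpi and of Spp1.

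The matrix genes showed an uneven collagen set. Of 157 genes in the matrix lists and families 76 were present and 16 reached 100 FPKM, taking 2.38% ± 0.0942 of the reads. Of 38 collagen rows, in which Col23a1 is listed 2 times, 15 were present. Col1a1, which encodes the alpha1 chain of fibrillar type I collagen, had 280, 296 and 343 FPKM. Col1a2, the chain that normally joins it in the type I trimer, had 94, 94 and 117 reads, equal to 0.62, 0.56 and 0.63 FPKM. The basement membrane chains Col4a1 and Col4a2, in contrast, were both present, at 143 ± 10.9 and 80.8 ± 7.21 FPKM. Col3a1 had 105 ± 2.03 FPKM, Col5a2 had 51.7 ± 3.04 FPKM and Col6a2 had 23.0 ± 2.99 FPKM. Col13a1 and Col14a1 had 0 reads.

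The list of elastic fibre and crosslinking genes, which holds collagen-processing proteins and fibrillins, had 15 of 19 present and a median of 31.6 FPKM. Pcolce, which speeds removal of the procollagen tail, had 476, 539 and 599 FPKM. P4hb, a subunit of prolyl hydroxylase, was at 499, 501 and 500 FPKM, hardly differing between libraries. The collagen chaperone Serpinh1 had 435 ± 19.96 FPKM, and the crosslinking oxidase Loxl3 had 123 ± 16.0 FPKM. Of the proteoglycans, the small leucine-rich Bgn had 495 ± 27.1 FPKM and the large Vcan had 43.4 ± 2.38 FPKM, with 7 of 14 present. Of 31 glycoproteins 17 were present, with fibronectin, Fn1, at 130 ± 9.09 FPKM and the calcification inhibitor Mgp at 105 ± 6.72 FPKM. Fbln2 and Vtn had 0 reads.

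Laminins form the network of basement membranes. Of 11 laminin chains 7 were present, with Lamc1 and Lamb1 at 35.9 ± 1.49 and 34.7 ± 0.293 FPKM. The lysosomal cathepsins Ctsl and Ctsb had 1105 ± 20.7 and 339 ± 4.53 FPKM. Of 15 metalloproteinases 4 were present: the collagenase Mmp13 at 58.9, 53.1 and 46.7 FPKM, the membrane-bound Mmp14 at 28.8 ± 1.34 FPKM, Mmp19 at 26.0 ± 0.454 FPKM and Mmp16 at 6.07 ± 0.770 FPKM. Fap and Mmp8 had 0 reads. The tectorial and otolithic membranes of the inner ear have their own matrix proteins, and of 8 matched genes for them Col11a1 alone was present, at 16.3 ± 1.37 FPKM, while the tectorin Tecta had 0.00333 ± 0.00577 FPKM.

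On the cell surface, 133 of 345 genes were present and 8 reached 100 FPKM. Tetraspanins and adhesion proteins led. Cd63, a tetraspanin of endosomes and exosomes, had 1143, 1224 and 1243 FPKM, and Bsg, the immunoglobulin-like basigin, had 631, 714 and 762 FPKM. The tetraspanins Cd81 and Cd82 had 338 ± 26.5 and 181 ± 8.34 FPKM, and the heparan sulfate proteoglycan Sdc4 had 328 ± 30.7 FPKM. The stem cell antigen Cd34 had 0 reads.

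Integrins, the receptors for matrix, were present in 10 of 24 cases. The common beta chain Itgb1 had 121, 106 and 100 FPKM, and its laminin-binding and fibronectin-binding partners Itga3 and Itga5 had 78.8 ± 10.6 and 43.0 ± 3.11 FPKM. Itgb5, on a row typed as a processed transcript, had 42.8 ± 2.59 FPKM. Cadherins were sparse, with 6 of 60 genes present: N-cadherin, Cdh2, led at 29.5 ± 1.79 FPKM, followed by Pcdhgc3 at 17.4 ± 0.928 FPKM and the mesenchymal Cdh11 at 5.16 ± 0.542 FPKM. Claudins, the strands of tight junctions, had 2 of 13 present, the highest being Cldn12 at 7.33 ± 0.831 FPKM. Of 10 gap junction connexins 2 were present, Gja1 at 21.9, 19.98 and 14.97 FPKM and Gjc1 at 11.5 ± 0.469 FPKM. Gjb2 and Gjb6, the connexins of cochlear supporting cells, matched no row.

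Receptor families were present at shares near or below that of all rows, 54.4%, apart from cytokine receptors at 66.7%. Of 38 receptor tyrosine kinases 21 (55.3%) were present, with Axl, the receptor for Gas6, at 64.2 ± 2.22 FPKM, Ryk at 34.4 ± 1.78 FPKM and the collagen receptor Ddr1 at 25.5 ± 3.38 FPKM. Of 33 cytokine receptors 22 were present. Tnfrsf12a, the receptor for TWEAK, led with 187, 204 and 243 FPKM, followed by the TNF receptor Tnfrsf1a at 81.3 ± 6.2 FPKM and Ltbr at 56.3 ± 7.79 FPKM. Cxcr3, the receptor for Cxcl10, had 0.473 ± 0.0757 FPKM. Of 35 TGF-beta, Wnt and Notch receptors 20 (57.1%) were present, the highest being the frizzleds Fzd1 and Fzd2 at 27.2 ± 0.909 and 20.4 ± 3.44 FPKM. Of 19 ephrins and Eph receptors 10 were present (Ephb4 10.6 ± 0.557 FPKM), and of 27 semaphorins and plexins 11 (Plxnb2 35.4 ± 2.65 FPKM). Potassium channels were mostly low, with 6 of 49 present and Kcng4 the highest at 8.33 ± 1.23 FPKM.

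Transcription factors were present in 169 of 288 cases, with a median of 2.21 FPKM, and together took 0.971% ± 0.0489 of the reads. Both values lie between those of all rows (54.4% present, median 1.68 FPKM) and of protein-coding rows (60.3%, 2.95 FPKM). Id3 and Id1, which block the DNA binding of helix-loop-helix factors, were among the highest, with 495, 543 and 630 FPKM for Id3 and 195 ± 22.8 FPKM for Id1. The stress factor Atf4, which drives amino acid supply genes, had 337, 341 and 344 FPKM and its relative Atf5 had 185 ± 20.2 FPKM. Of 27 AP-1 and immediate early genes 21 were present, among them Ier3 at 139 ± 17.2 FPKM, Myc at 52.1 ± 2.67 FPKM and Jund at 41.5 ± 5.91 FPKM.

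Mesenchymal factors were present in 28 of 39 cases. Prrx2, a paired-type homeobox factor of mesenchyme, had 164, 184 and 220 FPKM. The forkhead factor Foxc1 had 36.7 ± 0.982 FPKM, the zinc finger factor Snai1 had 22.4 ± 3.40 FPKM and Prrx1 had 17.7 ± 0.987 FPKM. Of 27 matched otic and sensory factors 13 were present, among them Tbx1 and, at lower levels, Lhx2 at 13.8 ± 1.28 FPKM. Gfi1 and Dlx6 had 0 reads, and Atoh1, Pou4f3, Sox2, Pax2 and 11 others of that list matched no row.

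Families that mark position or lineage were mostly under 1 FPKM. Of 22 Hox genes Hoxb6 alone was present, at 2.04, 1.39 and 3.62 FPKM, and Hoxa5 stood next at 0.957 ± 0.196 FPKM. Of 9 Sox genes Sox12 alone was present, at 11.5 ± 1.13 FPKM. Of 10 T-box genes Tbx1, Tbx18 (6.4 ± 0.301 FPKM) and Tbx15 (2.45 ± 0.209 FPKM) were present, and of 7 LIM homeobox genes Lhx2 alone. All 8 Smad genes were present, with Smad2 highest at 12.8 ± 0.974 FPKM. Forkhead genes were present in 13 of 30 cases, Kruppel-like factors in 11 of 16 rows (Klf15 29.5 ± 4.13 FPKM) and nuclear receptors in 16 of 39 rows, with the oxysterol receptor Nr1h2 at 41.9 ± 6.71 FPKM. Of 26 circadian and stress factors 24 were present, among them the antioxidant regulator Nfe2l2 at 78.3 ± 3.55 FPKM, Ddit3 at 71.1 ± 7.05 FPKM and Xbp1 at 48.4 ± 0.320 FPKM.

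**Figure D5:**
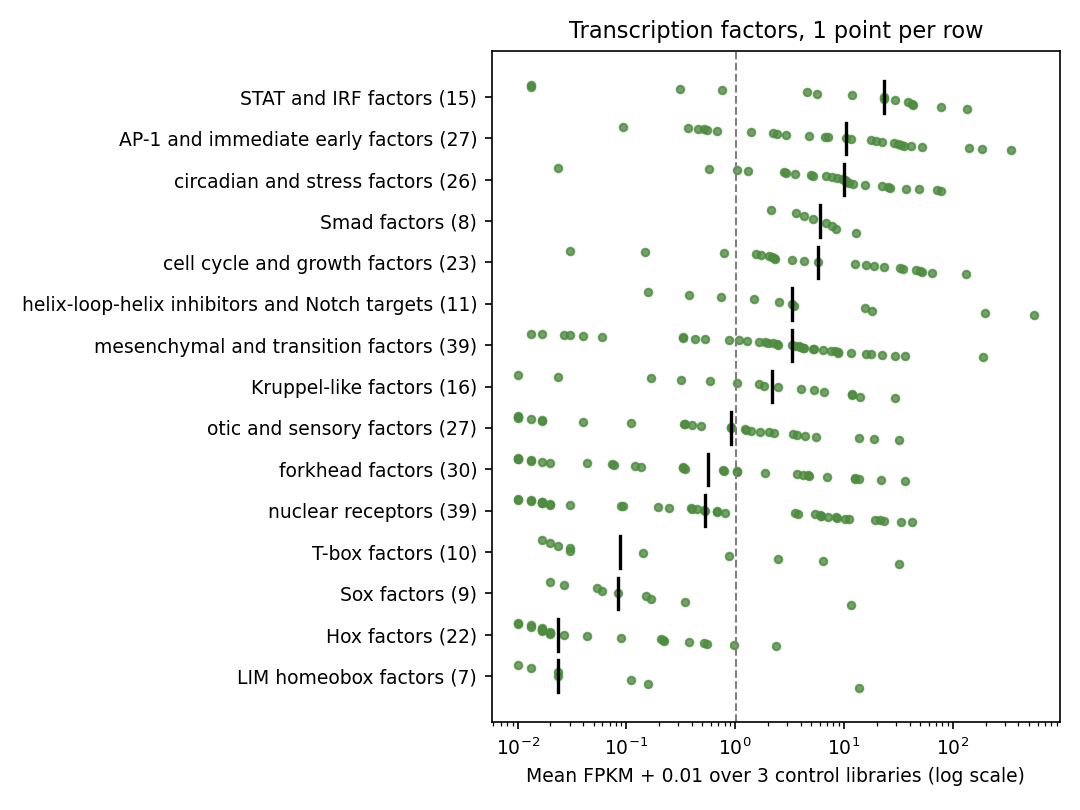
Mean FPKM plus 0.01 over the 3 control libraries (horizontal axis, log scale) for the rows of 15 transcription factor lists and families, with the number of rows in brackets, a thick bar at each median and a dashed line at the 1 FPKM level. The STAT and IRF list has the highest median, 23.2 FPKM, and the Hox and LIM homeobox families the lowest, 0.0133 FPKM.

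All 27 matched genes of the proliferation list were present, with a median of 59.8 FPKM, while Ccnb2 and Ccnd2 matched no row. The replication clamp Pcna had 422, 410 and 365 FPKM, the mitotic kinase Cdk1 had 345 ± 2.28 FPKM and the G1 kinase Cdk4 had 345 ± 19.99 FPKM. The nucleotide enzyme Rrm2 had 205, 176 and 160 FPKM and cyclin B, Ccnb1, had 120 ± 2.04 FPKM. Genes that restrain the cycle were present beside them, 14 of 15. Cdkn2a, the locus of the inhibitors p16 and p19ARF, had 388, 466 and 562 FPKM, with control 1 the lowest and control 3 the highest. Cdkn2c had 67.2 ± 7.01 FPKM, Trp53 had 64.1 ± 3.58 FPKM and Cdkn1a, the p21 inhibitor that p53 induces, had 52.7 ± 4.21 FPKM. Lmnb1, a nuclear lamin that is often low in senescent cells, had 39.2 ± 2.50 FPKM, and the chromatin protein Hmga1 had 277 ± 16.2 FPKM.

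Metabolic and structural genes were nearly all present. Of 18 glycolytic genes 16 were present, with Ldha at 1003 ± 49.8 FPKM, Aldoa at 959 ± 64.3 FPKM and Eno1 at 765 ± 55.4 FPKM. Of 28 iron, redox and detoxification genes 27 were present, among them the thiol proteins Txn1 at 2387 ± 79.9 FPKM and Prdx1 at 1013 ± 45.0 FPKM, the superoxide dismutase Sod1 at 971 ± 30.2 FPKM and the quinone reductase Nqo1 at 734 ± 32.0 FPKM. Of 46 cytoskeletal genes 44 were present and took 3.55% ± 0.106 of the reads.

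Most genes linked to hearing were under 1 FPKM. Of 47 matched genes that cause deafness when mutated 17 were present, and the highest have general roles: the cytoplasmic actin Actg1 at 675 ± 10.3 FPKM, the protease inhibitor Serpinb6 at 109 ± 7.06 FPKM and the nucleotide synthesis enzyme Prps1 at 40.9 ± 4.15 FPKM. Tmprss3, Smpx and Clrn1 were among the members with 0 reads. Of 18 calcium and mechanotransduction channel genes 6 were present, with the pressure-gated Piezo1 at 8.35, 9.43 and 11.5 FPKM and the chloride cotransporter Slc12a2 at 7.99, 6.50 and 6.29 FPKM.

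Some low values belong to genes with a near copy in the tables. Hspa8, a chaperone made by nearly all cells, had 1.61 ± 0.178 FPKM, while AABR07070032.1, described as the same heat shock cognate protein, had 702 ± 17.5 FPKM. Hsp90aa1 had 36, 1161 and 24 reads, while LOC103692716, described as the same protein, had 7713, 7896 and 7856. LOC102551071, like the myosin light chain Myl6 that matched no row, had 569 ± 7.42 FPKM. A low value of a single gene may thus stand for reads that were assigned to another row. Myh9, the non-muscle myosin heavy chain of most cultured cells, had 2, 1 and 0 reads, and the like-described row LOC100911597 had 14, 18 and 13.

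The 3 control libraries were close to one another. The biological coefficient of variation, the spread between libraries beyond counting error, was 9.0% by edgeR over 11784 genes. Of 9167 genes averaging 5 CPM or more, 15 (0.164%) had a highest library at least 2 times the lowest, and the median ratio of highest to lowest was 1.14. Without control 1 that count was 3, without control 2 it was 11 and without control 3 it was 7. At 1.5 times the count was 162, and control 1 was the highest library for 103 of them, control 2 for 15 and control 3 for 44. Per pair, the SD of the log2 difference across genes was 0.21 for controls 1 and 2, 0.27 for 1 and 3, and 0.18 for 2 and 3. Each pair differed by more than counting noise, so the 3 were treated as separate libraries.

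The genes that differed most between control libraries included unnamed rows and named genes. AABR07015078.1, which has no description, had 5934, 0 and 0 reads, and AABR07015080.2, on the same chromosome 14, had 1800, 11 and 3. AABR07063425.2, a miRNA row, had 1, 779 and 0 reads. AABR07008377.1 had 3175, 274 and 5465 reads. Among named genes, Hsp90aa1 was high in control 2 alone. Cd151, a tetraspanin that binds laminin-binding integrins, had 207, 1408 and 2716 reads, Timm17b, of the mitochondrial import machinery, had 13, 219 and 284, and the Fc receptor Fcgr2a had 99, 309 and 407. For these 3 genes control 1 was the lowest library.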

How the data were processed

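Total RNA of HEI-OC1 cells was sequenced in 6 libraries, and the 3 control siRNA libraries were used. The authors aligned the reads with TopHat2 to the build mRatBN7.2, per the submitters' processing notes. Its version, the tool that counted reads, strandedness and gene annotation: not given in the sources used here. Contigs named in the tables come from a different rat assembly, and coordinates were therefore not taken from them. Since strandedness is unstated, a gene and an overlapping or antisense partner may share reads. The deposited files give unnormalized read counts for each gene and FPKM computed by the authors. Of the 18718 rows, 90 had no FPKM value. The siRNA name and number in each column header gave its sample, with 0 columns left unmatched.

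From the counts, shares of reads and CPM were computed with pandas 2.3.3 in Python 3.11.15. The spread between libraries is edgeR's common dispersion (version 4.0.16, under R 4.3.3) after the filterByExpr filter and TMM scaling, and this step was tested on simulated data of known dispersion. Ratios between libraries used TMM-scaled CPM plus 0.5 and genes averaging 5 CPM or more. No group was compared, so no p-value is given. Of 1104 distinct list entries, 960 were found by symbol, 11 by an older name from RefSeq's GRCr8 table and 133 in no row. In a list, a symbol with several rows took the highest, while families matched by name keep every row. Promoter sequences are RefSeq's, for GRCr8, and only bases before the gene start are printed.

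The members and the gene lists were chosen with earlier results of these data known. Named genes are the 25 highest protein-coding rows by mean FPKM outside rows named Rpl or Rps and the mitochondrial genome (some of the 25 are described as like a ribosomal protein), up to 6 highest members of each list, members of a cell type list at 0 reads, the 10 genes with the largest ratio between libraries, and Hnrnpd. Members of other lists at 0 reads, the highest rows of each GeneType, the near copies, Myo7a, Col1a2, Dcn, Postn, Acta2, Cdh1, Ifit1, Oas3, Ifnar1, Ifnar2, Ifnb1, Cd74, Cxcr3, Il6, Tecta and Myh9 were named after their values were seen. The same holds for the supporting cell and prosensory markers below 1 FPKM. Alternatives were other minimum levels, TPM rescaling, shares of the FPKM sum, leaving out mitochondrial rows, CPM ranks, RLE size factors, other filters and pseudocounts, and leaving out each library. Some results are not reported here.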

Additional observations from a re-analysis of the deposited data

How the results depend on the processing

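The count of genes at 1 FPKM or more (10182) ranged from 7153 to 11064 over other minimum levels, TPM rescaling and each library left out, and the count of list members present (866) from 634 to 930. At a minimum of 5 FPKM the count of members moved by more than 1.5 times for 37 of 77 lists and families, and at 0.5 FPKM for 2 of 77. As a share of the FPKM sum, protein-coding rows took 97.98%, mitochondrial ribosomal RNA 0.472%, pseudogenes 0.932% and the 100 highest genes 38.5%. Without mitochondrially encoded rows, protein-coding rows took 99.10%, intergenic RNA 0.113%, pseudogenes 0.598% and the 100 most counted genes 21.2%. These settings change the denominator of each share by construction. By CPM, 14 of the 25 highest genes stayed among the 25 highest. The biological coefficient of variation was 9.94% without a filter, 8.70% with at least 50 counts in all 3 libraries, and 7.22% to 11.8% with a library left out. The number of genes differing 2-fold between libraries (15) was 39 with a mean of at least 1 CPM, 54 without a filter, and 3 to 11 with a library left out, where fewer libraries are compared. No paired analysis was possible because only control libraries were described and no result comes from a test between groups. Depth limits what a count of 0 shows to levels above about 0.1 CPM, and the species of the reads and near-copy rows limit single low values.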
